A study of Caenorhabditis elegans with 24 samples.

Results

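The genes described here are 10 Caenorhabditis elegans genes for small secreted peptides made in the epidermis. There were 7 from the nlp family (nlp-27, nlp-28, nlp-29, nlp-30, nlp-31, nlp-33 and nlp-34) and 3 from the cnc family (cnc-2, cnc-4 and cnc-6). They were chosen by name, with earlier results of these data known, so their shares of calls are not those of unselected families. A chosen gene entered where a probe set of the array carried its symbol and no other. A further 12 nlp and cnc genes that were tested are described apart below. All 10 had exactly 1 such probe set, and all 10 were among the 25434 genes tested.

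The epidermis of the worm lies under the cuticle, which spores of the fungus Drechmeria coniospora pierce. Infection and wounding both switch on nlp and cnc genes, whose short products, rich in glycine and aromatic residues, are regarded as antimicrobial. The nlp genes, with nlp-29 as the usual reporter, depend on a G-protein-coupled receptor, a p38 MAP kinase cascade and the STAT-like factor STA-2, whereas cnc-2 depends on a TGF-beta pathway started by the ligand DBL-1. Loss of furrow collagens of the cuticle, or of genes such as osm-8 that restrain the osmotic stress response, raises nlp-29 without infection.

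Messenger RNA from whole worms was measured on 24 whole-transcript arrays, 3 preparations in each of 8 groups. The groups were daf-16(mgDF47) mutants and wild-type worms, each as adults and as late L4 larvae, and each at 25 °C and 15 °C. The mutant lacks working DAF-16, the FOXO transcription factor on which insulin-like signalling acts. Adults spent the 3 days after the late L4 stage at the stated temperature, while larvae grew at it from the embryo to late L4. About 120 adults or 300 larvae went into a preparation. The labels name no infection or wounding and no cultures, so the p-values below measure the spread between preparations, which may be technical. Because adults were matched by days, temperature and how far adult life had advanced cannot be told apart in them. In RNA from whole worms, a change of level within the epidermis and a change in the epidermal share of the RNA cannot be told apart either.

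Values are the authors' log2 expression levels, and a difference of 1 is a doubling. Each is given as the log2 level of a gene's own probe set. Arrays of the same group correlated with each other at 0.989 to 0.996 across genes. The medians of the adult arrays (3.57 to 3.72) and of the larval arrays (3.05 to 3.12) lay apart, and the stages appear to have been normalized separately, so no level in adults was tested against a level in larvae. The daf-16 probe set was lower in the mutant in all 4 comparisons of genotype, by -2.01 to -2.48 log2 units (limma, adjusted p at most 1.2e-07). Where its probes lie relative to the deletion is not known.

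Within the adults, nlp-33 and nlp-34 had the highest medians over the 12 arrays. The level of nlp-33 ran from 5.87 to 8.05 with a median of 7.47, and that of nlp-34 from 4.02 to 9.38 with a median of 7.23. Probe sets differ in how strongly they report, so an order between genes was not tested. Against the other genes on its own array, nlp-33 stood at the 70.6th to 82.4th percentile in adults and at the 84.2nd to 90.3rd percentile in larvae. The genes nlp-30, nlp-33, nlp-34, cnc-2 and cnc-4 were above the array median on all 24 arrays.

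The dim end held nlp-29, nlp-27 and nlp-31. The usual reporter nlp-29 was below the median of all 12 adult arrays, at the 2.21st to 38.8th percentile, but above the median of 9 of the 12 larval arrays. nlp-27 was below the median of all 24 arrays, and nlp-31 was above it on 3 adult arrays only. The level of nlp-28 was above the median of all 12 adult arrays and of 1 larval array. cnc-6 was above the median on 8 adult arrays, and its larval levels (1.01 to 1.48, with a median percentile of 6.03) were among the lowest on those arrays. At such levels an array reports small changes poorly.

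**Figure D1:**
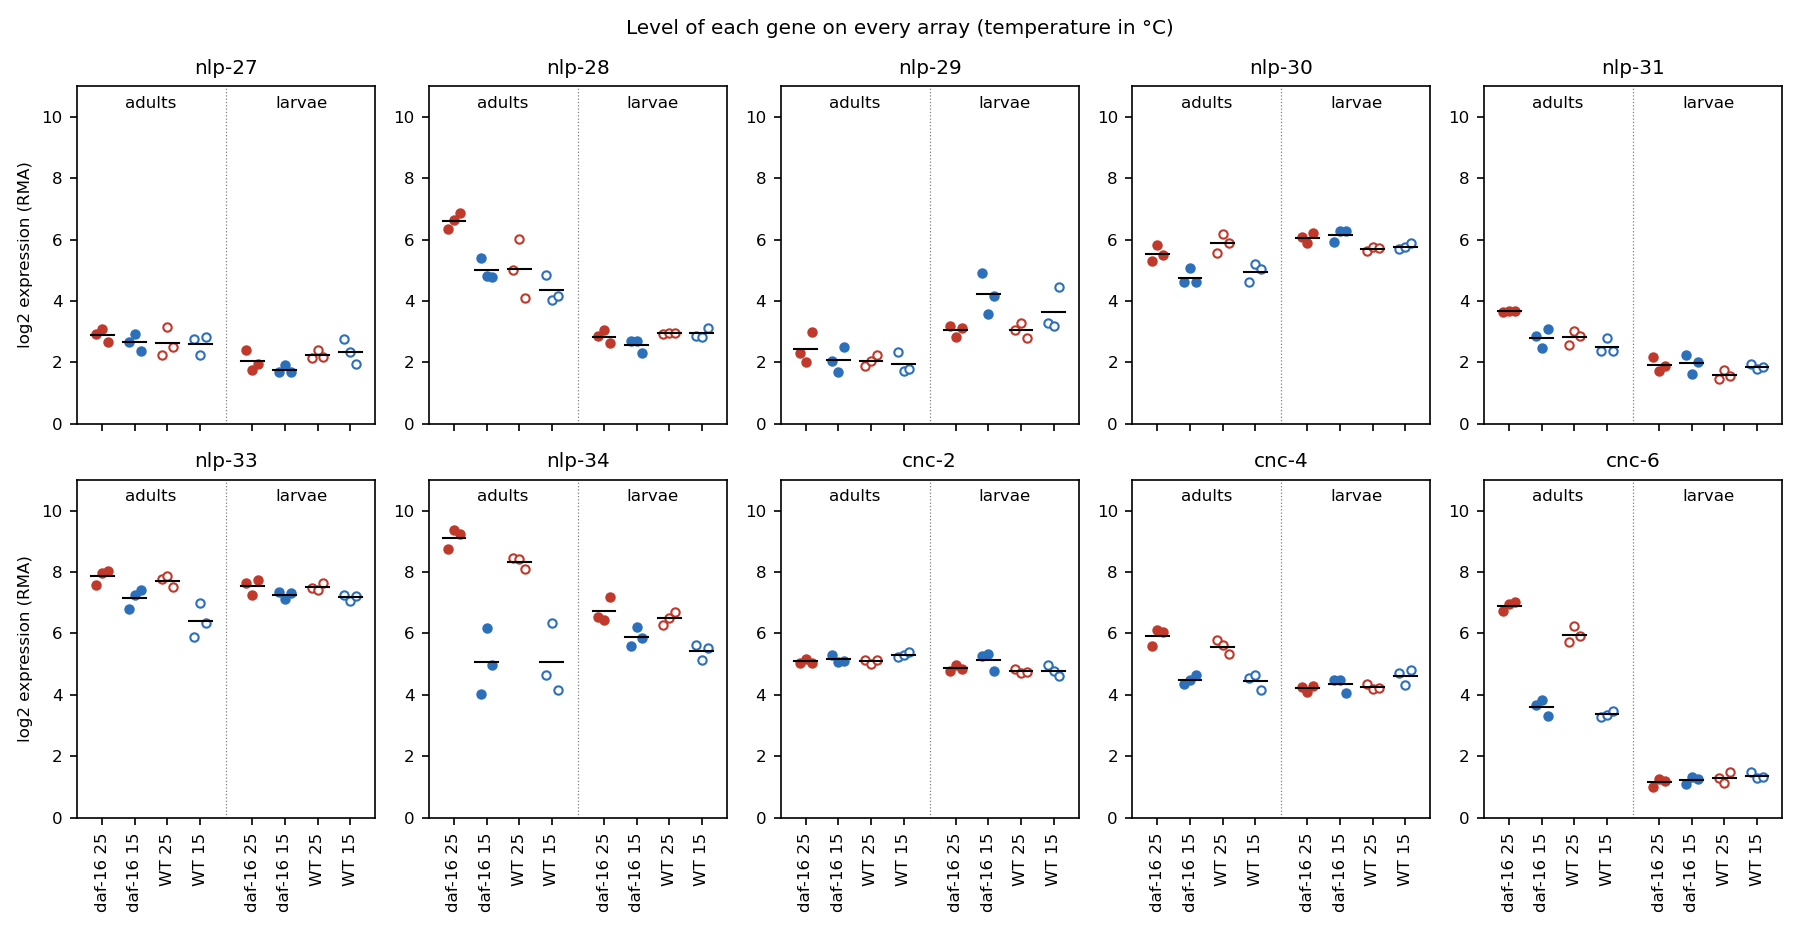
Log2 expression level (vertical axis) of each of the 10 genes on every array, adults left of the dotted line and larvae right of it. Points are single arrays, filled for daf-16 and open for wild type, red for 25 °C and blue for 15 °C, and bars are means of 3. The points of cnc-6 in adults sit between 5.72 and 7.03 at 25 °C and between 3.29 and 3.85 at 15 °C, while its larval points lie between 1.01 and 1.48.

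The first comparison asks what warmth did in adults. Of the 10 genes, 7 rose at 25 °C against 15 °C in daf-16 adults, where 13.4% of all genes tested rose, and 5 rose in wild-type adults, where 15.1% did. None of the 10 fell, against 11.2% of all genes in daf-16 adults and 15% in wild-type adults. The median log2 difference of the 10 was 0.81 in daf-16 adults and 0.82 in wild-type adults, beside -0.10 over all genes in each. The warm and cool arrays did not overlap for 7 of the 10 in daf-16 adults, where that held for 45.4% of all genes, and for 6 of the 10 in wild-type adults, where it held for 42.9%. A gene was called where its p from limma, adjusted by Benjamini-Hochberg over all genes tested, was under 0.05. After centring of the arrays on their medians, higher genes made up 43.4% of all calls in place of 54.3% in daf-16 adults and 36.0% in place of 50.2% in wild-type adults, and the same 7 and 5 of the 10 were called.

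The largest rises were those of nlp-34 and cnc-6. nlp-34, which codes for one of the small peptides of the nlp cluster, stood at 8.75, 9.38 and 9.23 in daf-16 adults at 25 °C, against 4.02, 6.18 and 4.99 at 15 °C. In wild-type adults it stood at 8.45, 8.43 and 8.11 at 25 °C, against 4.65, 6.35 and 4.17 at 15 °C. The groups lay far apart in both genotypes, and preparation 2 was the highest of the 3 at 15 °C in each. The difference was 4.06 ± 0.43 (SE) in daf-16 adults, a 16.7-fold rise (limma, adjusted p = 3.9e-07). In wild-type adults it was 3.28 ± 0.43, a 9.69-fold rise (adjusted p = 4.3e-06), and 3.92 without preparation 2 at 15 °C (adjusted p = 1.2e-07).

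cnc-6, a caenacin outside the main cnc cluster, had levels of 6.74, 6.95 and 7.03 in daf-16 adults at 25 °C, against 3.67, 3.85 and 3.31 at 15 °C. In wild-type adults the levels were 5.72, 6.23 and 5.91 at 25 °C, against 3.29, 3.35 and 3.46 at 15 °C. Every warm array was above every cool one, with a gap many times the spread within a group. The rise was 3.30 ± 0.14 (SE) in daf-16 adults, or 9.82-fold (limma, adjusted p = 1.9e-12). It was 2.58 ± 0.14 in wild-type adults (adjusted p = 6.3e-11).

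Smaller rises in both genotypes were found for cnc-4, nlp-30 and nlp-33. The caenacin gene cnc-4 stood at 5.58, 6.12 and 6.05 in daf-16 adults at 25 °C, against 4.34, 4.50 and 4.63 at 15 °C. In wild-type adults its levels were 5.77, 5.61 and 5.34 at 25 °C, against 4.54, 4.64 and 4.16 at 15 °C. No warm array overlapped a cool one, and the rise was 1.43 ± 0.17 (SE) in daf-16 adults (limma, adjusted p = 1.4e-06) and 1.12 ± 0.17 in wild-type adults (adjusted p = 2e-05). nlp-30, a cluster gene that infection also induces, had levels of 5.30, 5.81 and 5.49 in daf-16 adults at 25 °C, against 4.61, 5.06 and 4.61 at 15 °C. Its wild-type levels were 5.58, 6.18 and 5.90 at 25 °C, against 4.61, 5.19 and 5.05 at 15 °C. The groups were again separate. Its rise was 0.77 ± 0.18 in daf-16 adults (adjusted p = 0.0022) and 0.94 ± 0.18 in wild-type adults (adjusted p = 0.00024).

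nlp-33, an infection-induced gene that lies apart from the cluster, stood at 7.58, 7.95 and 8.05 in daf-16 adults at 25 °C, against 6.80, 7.26 and 7.42 at 15 °C. In wild-type adults it stood at 7.77, 7.86 and 7.51 at 25 °C, against 5.87, 6.99 and 6.33 at 15 °C. In both genotypes the warm and cool arrays did not overlap, though in daf-16 adults the gap was narrow. Its rise was 0.70 ± 0.21 (SE) in daf-16 adults (limma, adjusted p = 0.017). In wild-type adults the rise was 1.32 ± 0.21 (adjusted p = 4.3e-05). The daf-16 call was lost without preparation 1 at 15 °C (0.52, adjusted p = 0.11), without preparation 2 at 25 °C (0.66, adjusted p = 0.066), without preparation 3 at 25 °C (0.61, adjusted p = 0.078) and when adult arrays alone were fitted (adjusted p = 0.056).

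The cluster genes nlp-28 and nlp-31 passed the test in daf-16 adults and not in wild-type adults. nlp-28 stood at 6.33, 6.63 and 6.88 in daf-16 adults at 25 °C, against 5.39, 4.82 and 4.78 at 15 °C, and its rise was 1.62 ± 0.30 (SE; limma, adjusted p = 0.00039). In wild-type adults it had 5.02, 6.01 and 4.09 at 25 °C, against 4.86, 4.03 and 4.16 at 15 °C. The warm wild-type arrays were widely spread and overlapped the cool ones. The wild-type difference was 0.69 ± 0.30 (adjusted p = 0.091), and without preparation 2 at 25 °C it was 0.21 (adjusted p = 0.62). It passed without preparation 3 at 25 °C (1.17, adjusted p = 0.0019), without preparation 1 at 15 °C (0.95, adjusted p = 0.036) and with array weights (0.84, adjusted p = 0.049).

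nlp-31 had levels of 3.64, 3.68 and 3.67 in daf-16 adults at 25 °C, against 2.87, 2.47 and 3.08 at 15 °C. In wild-type adults the levels were 2.56, 3.04 and 2.86 at 25 °C, against 2.37, 2.80 and 2.37 at 15 °C. The daf-16 groups were separate and the wild-type groups overlapped. The difference was 0.86 ± 0.17 (SE) in daf-16 adults (limma, adjusted p = 0.00079) and 0.30 ± 0.17 in wild-type adults (adjusted p = 0.2).

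nlp-29, nlp-27 and cnc-2 passed the test in neither genotype. nlp-29 stood at 2.31, 2.02 and 2.99 in daf-16 adults at 25 °C, against 2.05, 1.69 and 2.50 at 15 °C, and at 1.88, 2.05 and 2.24 in wild-type adults at 25 °C, against 2.35, 1.72 and 1.79 at 15 °C. Its groups overlapped in both genotypes, and the 95% interval of its difference ran from -0.31 to 1.03 in daf-16 adults and from -0.57 to 0.77 in wild-type adults. For nlp-27, a weakly detected cluster gene, the intervals were -0.24 to 0.71 in daf-16 adults and -0.46 to 0.49 in wild-type adults. cnc-2, the TGF-beta-dependent caenacin, was well above the array median in adults. It had 5.04, 5.18 and 5.05 in daf-16 adults at 25 °C, against 5.30, 5.06 and 5.11 at 15 °C, and 5.13, 5.02 and 5.15 in wild-type adults at 25 °C, against 5.23, 5.30 and 5.40 at 15 °C. Every warm wild-type array was below every cool one, yet the difference of -0.21 (95% interval -0.48 to 0.05) missed the threshold (limma, adjusted p = 0.22). The intervals of cnc-2 exclude rises of the size seen for cnc-4 and cnc-6.

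**Figure D2:**
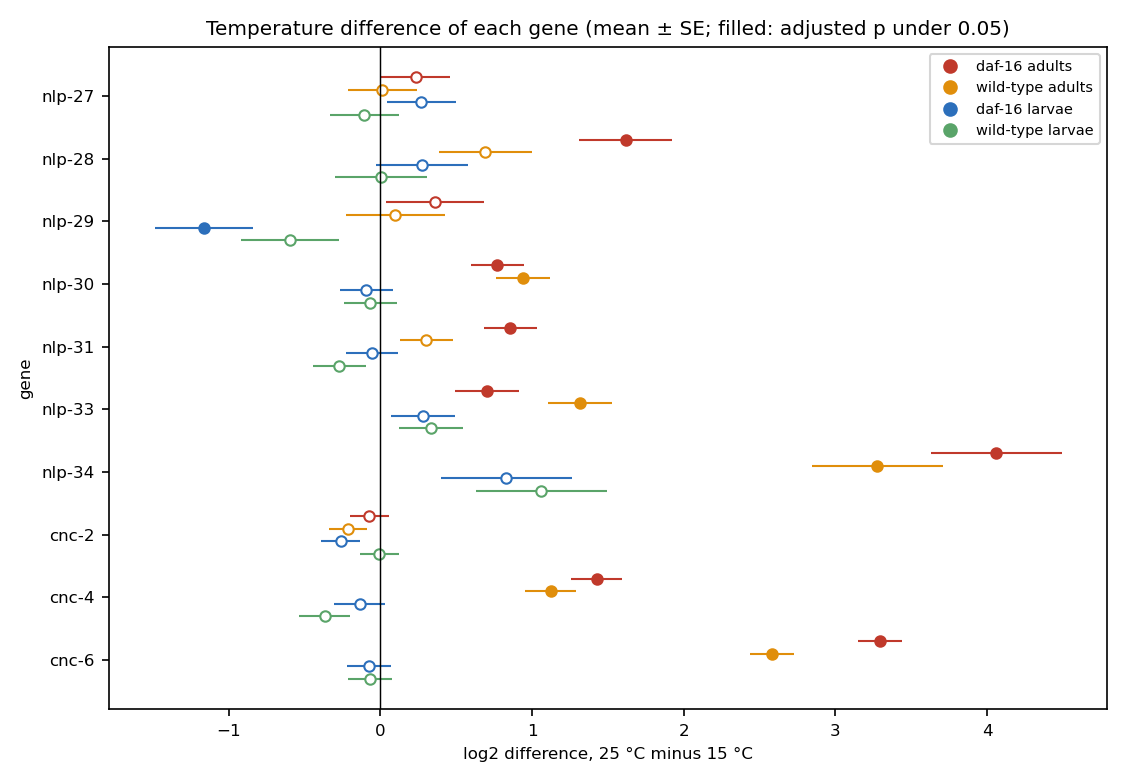
Log2 difference between 25 °C and 15 °C (horizontal axis) of each gene in the 4 combinations of genotype and stage, as the fitted mean with its SE. Filled points passed limma's test at an adjusted p under 0.05. In adults nlp-34 and cnc-6 lie farthest to the right (between 2.58 and 4.06), and the only filled point left of 0 is nlp-29 in daf-16 larvae at -1.16.

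In larvae the same comparison gave few calls. In daf-16 larvae 1 of the 10 fell and 0 rose, where 1.88% of all genes fell and 2.72% rose. In wild-type larvae limma called 0 of 10, where 4.28% of all genes were called in either direction. An unadjusted p under 0.05 was found for 2 of the 10, beside 17% of all genes. The median log2 difference of the 10 was -0.06 in daf-16 larvae and -0.07 in wild-type larvae, beside -0.02 and -0.03 over all genes in the same groups. Of 9 germ-line markers 0 had a positive difference, with medians of -0.38 in daf-16 and -0.34 in wild-type larvae. The epidermal marker col-19 differed by -0.79 ± 0.18 (SE) in daf-16 larvae (limma, adjusted p = 0.011) and -0.71 ± 0.18 in wild-type larvae (adjusted p = 0.022). Temperature and how far the larvae had developed therefore cannot be told apart.

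The gene that fell was nlp-29. It stood at 3.20, 2.83 and 3.14 in daf-16 larvae at 25 °C, against 4.93, 3.56 and 4.17 at 15 °C, and the groups did not overlap. In wild-type larvae it had 3.06, 3.29 and 2.80 at 25 °C, against 3.29, 3.18 and 4.47 at 15 °C, where the groups overlapped and preparation 3 at 15 °C was high. The difference was -1.16 ± 0.32 (SE) in daf-16 larvae (limma, adjusted p = 0.04) and -0.60 ± 0.32 in wild-type larvae (adjusted p = 0.37). The daf-16 call lay near the threshold. It was lost without preparation 1 (-0.81, adjusted p = 0.24) or 3 (-1.19, adjusted p = 0.088) at 15 °C. It was also lost without preparation 1 (-1.24, adjusted p = 0.067), 2 (-1.05, adjusted p = 0.12) or 3 (-1.20, adjusted p = 0.11) at 25 °C. The difference shrank most without preparation 1 at 15 °C. Without preparation 3 at 15 °C, or 1 or 3 at 25 °C, it was no smaller than with all arrays. When larval arrays alone were fitted its adjusted p was 0.093.

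nlp-34 stood higher on every warm larval array than on any cool one of the same genotype, without passing the test. Its levels were 6.54, 6.45 and 7.17 in daf-16 larvae at 25 °C, against 5.61, 6.22 and 5.85 at 15 °C, and 6.28, 6.50 and 6.69 in wild-type larvae at 25 °C, against 5.62, 5.13 and 5.54 at 15 °C. The difference was 0.83 ± 0.43 (SE) in daf-16 larvae (limma, adjusted p = 0.35) and 1.06 ± 0.43 in wild-type larvae (adjusted p = 0.19). The SE of 0.43 is pooled over all 8 groups, and nlp-34 was most widely spread in the cool adults (SD 1.08 in daf-16 and 1.14 in wild type). Fitted with the larval arrays alone, the wild-type difference passed (adjusted p = 0.016). cnc-6 differed by -0.07 ± 0.14 in each genotype, at signals near the bottom of the array. cnc-4 had a difference of -0.13 ± 0.17 in daf-16 larvae and -0.37 ± 0.17 in wild-type larvae (adjusted p = 0.79 and 0.26).

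The adult minus the larval temperature difference was tested next. Adults were matched by days and larvae by their labelled stage. Stage, time spent at the temperature and how far adults or larvae had advanced therefore cannot be told apart in it. In daf-16 worms 6 of 10 genes had a larger adult difference, where 6.82% of all genes did, and in wild-type worms 5 of 10 did, where 8.66% did. None of the 10 had a larger larval one, against 3.21% of all genes in daf-16 and 5.1% in the wild type. Centring each array moved the higher share of all calls to 58.0% in place of 68.0% in daf-16 worms and to 52.8% in place of 63.0% in the wild type, and left the calls of the 10 genes as they were. Leaving out single arrays did not: the count fell to 3 in daf-16 worms without larval preparation 2 at 25 °C, and to 3 in the wild type without adult preparation 3 at 15 °C. The calls of nlp-29, nlp-30 and nlp-31 in daf-16 worms and of nlp-33 and nlp-34 in the wild type were each lost in at least 1 such run. The larval levels of cnc-6, 1.01 to 1.48, lay near the bottom of the arrays, where small changes are reported poorly. This limits what the larval term of its gap can show. The adult minus larval gap was 3.37 ± 0.20 (SE) for cnc-6 in daf-16 worms (limma, adjusted p = 1.7e-09) and 2.65 ± 0.20 in wild-type worms (adjusted p = 3.7e-08). For nlp-34 it was 3.23 ± 0.61 in daf-16 worms (adjusted p = 0.0011) and 2.21 ± 0.61 in the wild type (adjusted p = 0.017; 1.77 and 0.058 without wild-type adult preparation 3 at 15 °C, 2.86 and 0.00056 without preparation 2). cnc-4 gave 1.56 ± 0.24 in daf-16 worms (adjusted p = 0.00013) and 1.49 ± 0.24 in the wild type (adjusted p = 0.00015). The gap of nlp-28 in daf-16 worms, 1.34 ± 0.43, lay at the threshold (adjusted p = 0.05) and was not called. It passed with array weights (1.44, adjusted p = 0.02), without the dimmer genes (adjusted p = 0.037), with a variance trend (adjusted p = 0.042) and without any 1 of 5 adult arrays, namely daf-16 preparation 1 at 25 °C or at 15 °C and wild-type preparation 2 or 3 at 25 °C or 1 at 15 °C (1.34 to 1.54, adjusted p = 0.0092 to 0.043).

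The second comparison asks which of the genes differed between daf-16 mutants and the wild type. In adults at 25 °C 3 of 10 were higher in daf-16 mutants than in the wild type and 0 were lower, where 1.36% of all genes were higher and 1.64% lower. The 3 were nlp-28, nlp-31 and cnc-6. The warm levels given above show no overlap between the genotypes for any of them. The difference, daf-16 minus wild type, was 1.57 ± 0.30 (SE) for nlp-28 (limma, adjusted p = 0.0043), 0.85 ± 0.17 for nlp-31 (adjusted p = 0.0069) and 0.95 ± 0.14 for cnc-6 (adjusted p = 0.00038). nlp-34 did not overlap either, with a difference of 0.79 ± 0.43 that missed the threshold (adjusted p = 0.45).

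In adults at 15 °C limma called 0 of 10 genes, where 1.47% of all genes were called. An unadjusted p under 0.05 was found for 2 of the 10, beside 12.5% of all genes. nlp-33 came nearest, with 0.76 ± 0.21 (SE) and an adjusted p of 0.075. It passed with the preparation number as a replicate block (adjusted p = 0.024), without wild-type preparation 2 (1.06, adjusted p = 0.0054), without daf-16 preparation 1 (0.94, adjusted p = 0.039), with array weights (0.73, adjusted p = 0.045) and with a trend in the variance prior (adjusted p = 0.047). The level of nlp-34 at 15 °C averaged 5.06 ± 1.08 in daf-16 adults and 5.06 ± 1.14 in wild-type adults (SD, n = 3 each), and the 95% interval of its difference was -0.89 to 0.90 (the difference was 0.01, and 0.65 with adjusted p = 0.58 without wild-type preparation 2). The interval of nlp-34 uses 1 spread pooled over all 8 groups. In the other groups the SD of nlp-34 was only 0.19 to 0.39. The interval is therefore narrower than the 15 °C adult arrays alone would give, and a sizeable genotype difference there is not excluded. For cnc-6 at 15 °C the difference was 0.24 ± 0.14 (adjusted p = 0.53).

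In larvae limma called 0 of 10 genes by genotype at 25 °C, where 0.118% of all genes were called. Of the 10, 0 had an unadjusted p under 0.05, beside 4.99% of all genes. At 15 °C limma called 0 of 10, where 0.0708% of all genes were called. There 3 of the 10 had an unadjusted p under 0.05, beside 7.86% of all genes. Those 3 were nlp-27 (-0.58 ± 0.23, SE), nlp-30 (0.38 ± 0.18) and cnc-2 (0.34 ± 0.13), with adjusted p from 0.51 to 0.61.

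**Figure D3:**
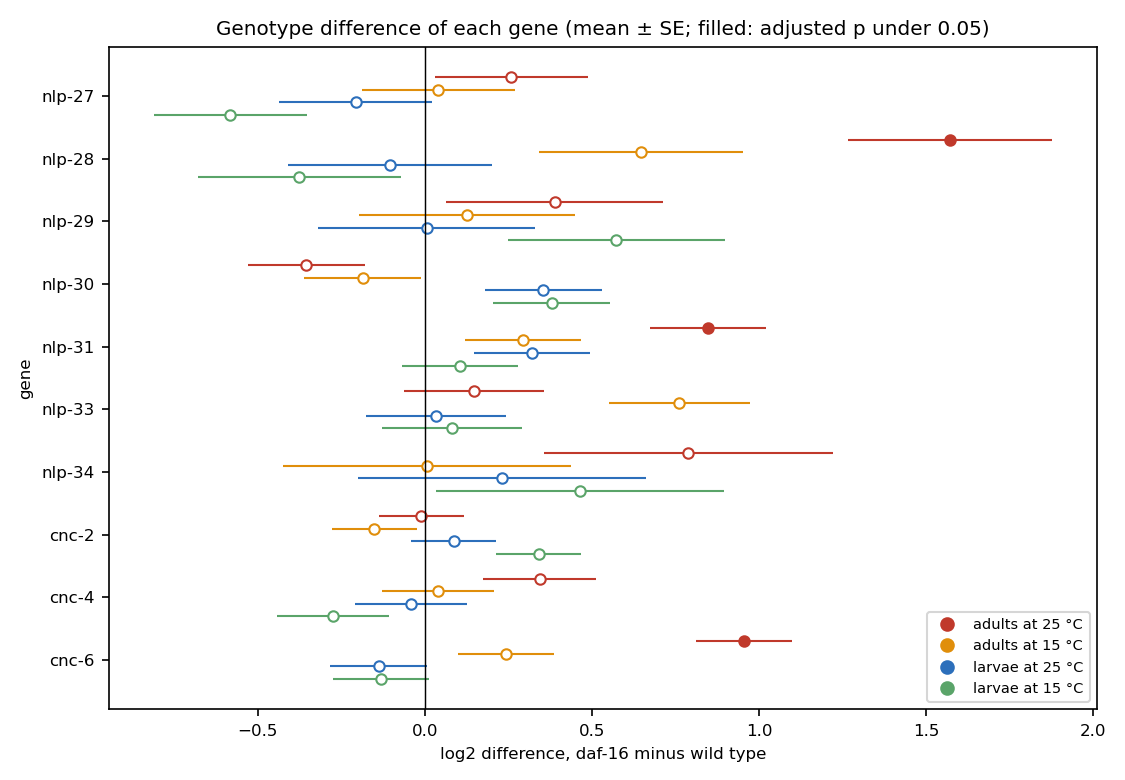
Log2 difference between daf-16 and wild type (horizontal axis) of each gene in adults and larvae at each temperature, as the fitted mean with its SE. Filled points passed limma's test at an adjusted p under 0.05. The 3 filled points are nlp-28 (1.57), nlp-31 (0.85) and cnc-6 (0.95), all in adults at 25 °C.

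The warmth difference in daf-16 adults minus that in wild-type adults was called for 0 of 10 genes by limma, where 0.267% of all genes were called. An unadjusted p under 0.05 was found for 3 of the 10, beside 6.75% of all genes. The 3 were cnc-6 (0.71 ± 0.20, SE, adjusted p = 0.23), nlp-28 (0.92 ± 0.43, adjusted p = 0.72) and nlp-31 (0.55 ± 0.25, adjusted p = 0.68). nlp-33 had a difference of the other sign, -0.61 ± 0.30 (adjusted p = 0.74). A larger response in the mutant is therefore not shown for any of the 10, although nlp-28 and nlp-31 passed the temperature test in daf-16 adults only. In larvae limma called 0 of 10, as it did of all genes tested. Of the 10, 0 had an unadjusted p under 0.05, beside 4.13% of all genes.

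Position in the genome did not go with one response. In the RefSeq gene table of the WBcel235 assembly, nlp-34, nlp-31, nlp-30, nlp-29, nlp-28 and nlp-27 follow each other as 6 protein-coding genes in a row. Along that row the adult temperature difference was 4.06, 0.86, 0.77, 0.36, 1.62 and 0.23 in daf-16 worms and 3.28, 0.30, 0.94, 0.10, 0.69 and 0.01 in the wild type. The largest and the smallest differences thus stood at its ends. cnc-2, cnc-3, cnc-4 and cnc-5 also lie together. Of these, cnc-3 rose by 1.15 ± 0.27 (SE) in daf-16 adults (limma, adjusted p = 0.0026) and by 1.01 ± 0.27 in wild-type adults (adjusted p = 0.0055). cnc-5 differed by -0.15 ± 0.22 in daf-16 adults and 0.06 ± 0.22 in wild-type adults (adjusted p = 0.65 and 0.87). With cnc-4 called and cnc-2 and cnc-5 not, these neighbours did not share 1 call. Neighbouring copies are alike in sequence, and whether a probe set also reports its neighbours was not tested.

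The protein-coding neighbours of cnc-6 are tbx-43, a T-box transcription factor gene, and Y46E12A.2. tbx-43 rose by 1.56 ± 0.23 (SE) in daf-16 adults at 25 °C (limma, adjusted p = 3e-05) and by 3.67 ± 0.23 in wild-type adults (adjusted p = 2.3e-10). It is named here after its values were seen. Y46E12A.2 differed by -0.20 ± 0.15 in daf-16 adults and -0.15 ± 0.15 in wild-type adults (adjusted p = 0.35 and 0.47).

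Of 12 other nlp and cnc genes, 2 rose with warmth in daf-16 adults and 3 in wild-type adults, and 0 fell in either. These shares, 16.7% in daf-16 and 25% in wild-type adults, stand beside 13.4% and 15.1% of all genes in the same groups, so the daf-16 share is near that of all genes. Besides cnc-3, cnc-10 rose by 0.56 ± 0.18 (SE) in daf-16 adults (limma, adjusted p = 0.029) and by 0.79 ± 0.18 in wild-type adults (adjusted p = 0.002), and cnc-8 rose in wild-type adults by 0.93 ± 0.23 (adjusted p = 0.0032). In larvae 2 of the 12 fell and 1 rose in daf-16 worms, where 1.88% of all genes fell and 2.72% rose, and 2 fell and 0 rose in the wild type, where 4.28% of all genes were called. Of these, nlp-26 fell to 3.06 ± 0.05 in daf-16 larvae at 25 °C, against 4.12 ± 0.22 at 15 °C, and to 2.76 ± 0.10 in wild-type larvae at 25 °C, against 4.50 ± 0.32 at 15 °C (SD, n = 3 each). Its adjusted p was 7.1e-05 in daf-16 larvae and 9.3e-08 in wild-type larvae. nlp-24 fell by 0.71 in daf-16 larvae (adjusted p = 0.019) and by 0.67 in wild-type larvae (adjusted p = 0.029). cnc-10 rose in daf-16 larvae by 0.72 (adjusted p = 0.023).

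The genes of the pathways named at the start were also counted in adults. Of 18 genes of the p38 and STA-2 route, 10 rose at 25 °C and 0 fell in each genotype, a share of 55.6% beside the 13.4% of all genes in daf-16 and 15.1% in wild-type adults. They included dcar-1, the receptor at its head (1.39 ± 0.14, SE, in daf-16 and 1.34 ± 0.14 in wild-type adults), and gpa-12, the G-protein alpha subunit below it (1.23 ± 0.18 in daf-16 and 1.72 ± 0.18 in wild-type adults). The bZIP factor gene cebp-1 rose by 1.36 ± 0.26 in daf-16 adults and 1.38 ± 0.26 in wild-type adults. tir-1, the adaptor that starts the kinase cascade, rose by 1.14 ± 0.18 in wild-type adults, and sta-2 rose by 1.08 ± 0.21 in daf-16 adults. The limma adjusted p of these differences was at most 0.00065. Only the 4 largest calls of a genotype are named, so a gene named in 1 genotype may also have risen in the other. For temperature by genotype in adults limma called 0 of the 18, where 0.267% of all genes were called. In daf-16 larvae 0 of the 18 were called, where 2.72% of all genes rose and 1.88% fell. An unadjusted p under 0.05 was found for 2 of the 18, beside 16.8% of all genes. In wild-type larvae 2 of the 18 fell, where 4.28% of all genes were called in either direction. These were nipi-4, by 0.59 ± 0.14 (limma, adjusted p = 0.013), and the GATA factor gene elt-3, by 0.53 ± 0.15 (adjusted p = 0.044).

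Of 10 genes of DBL-1 signalling, 5 rose and 0 fell in daf-16 adults, where 13.4% of all genes rose and 11.2% fell. In wild-type adults 5 of the 10 rose and 1 fell, where 15.1% of all genes rose and 15% fell. The 1 of the 10 that fell was daf-4, which codes for the type II receptor (-0.42 ± 0.10, SE, limma adjusted p = 0.0035). The rises included the Smad gene sma-4 (0.86 ± 0.18, SE, in daf-16 and 0.82 ± 0.18 in wild-type adults) and lon-1, a target and antagonist of the pathway (0.78 ± 0.15 in daf-16 and 0.84 ± 0.15 in wild-type adults). The ligand gene dbl-1 rose by 0.65 ± 0.20 in daf-16 adults (limma, adjusted p = 0.018). In wild-type adults sma-3 rose by 0.63 ± 0.20 (adjusted p = 0.023). The list covers DBL-1 signalling as a whole, outputs included, and which of its genes act on cnc-2 was not tested. Of 10 furrow collagens and osmotic regulators, 8 rose (80%, beside the same shares of all genes) and 0 fell in each genotype. They included osm-8, a mucin-like gene (1.58 ± 0.27 in daf-16 and 1.65 ± 0.27 in wild-type adults), osm-7 (1.43 ± 0.14 in daf-16 and 1.46 ± 0.14 in wild-type adults) and ptr-23, a patched-related gene (1.49 ± 0.15 in daf-16 and 1.36 ± 0.15 in wild-type adults). Among the furrow collagens, dpy-3 rose by 1.45 ± 0.33 in daf-16 adults and dpy-2 by 1.17 ± 0.26 in wild-type adults. Some genes known to hold nlp-29 down and some known to drive it up were thus both higher at 25 °C.

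**Figure D4:**
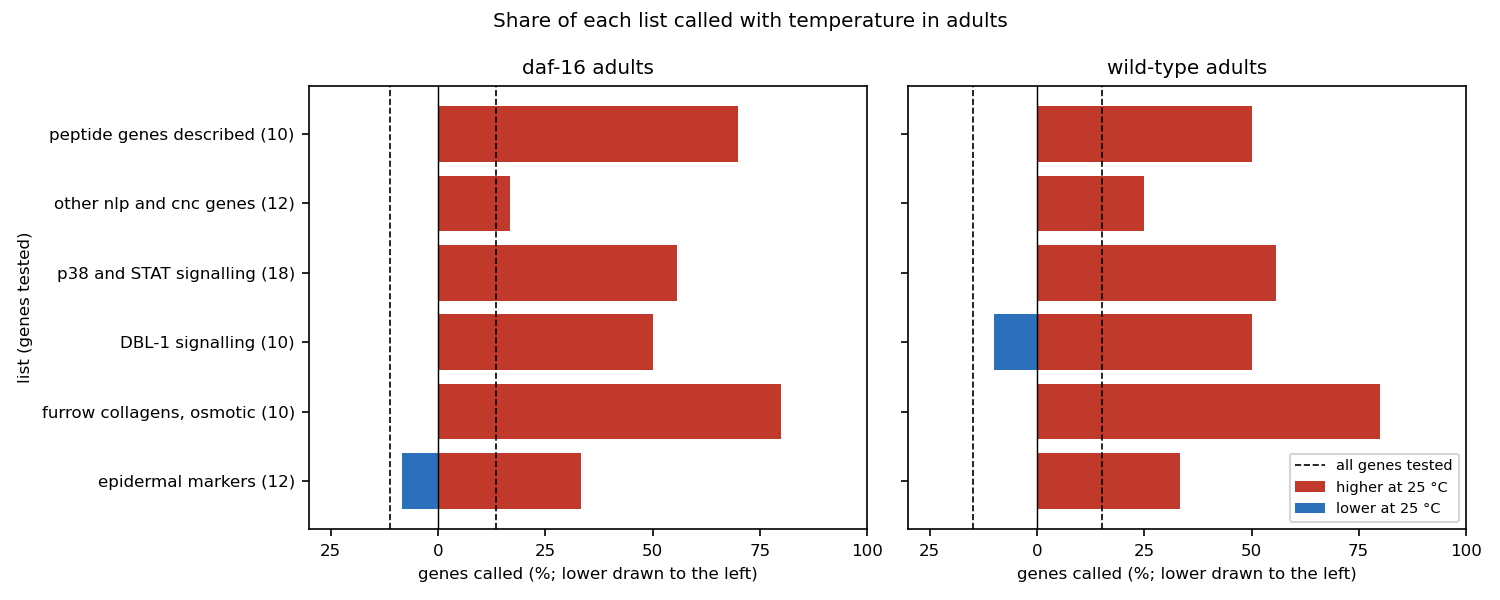
Share of each gene list (horizontal axis, in %) called higher at 25 °C (red, to the right) or lower (blue, to the left) in daf-16 and wild-type adults, with the number of genes tested in brackets. Dashed lines mark the shares among all genes tested, 13.4% higher and 11.2% lower in daf-16 adults and 15.1% higher and 15% lower in wild-type adults. The 10 peptide genes reach 70% in daf-16 and 50% in wild-type adults.

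Markers of several tissues were counted in the same adults. Among all genes 13.4% rose and 11.2% fell in daf-16 adults, and 15.1% rose and 15% fell in wild-type adults. Of 12 epidermal markers, 4 rose and 1 fell in daf-16 adults and 4 rose and 0 fell in wild-type adults, the largest rises being those of the hedgehog-related genes wrt-10 (2.50 ± 0.26, SE, in daf-16 and 2.94 ± 0.26 in wild-type adults) and wrt-2 (2.32 ± 0.36 in daf-16 and 2.46 ± 0.36 in wild-type adults). The log2 of their summed level was 11.79 to 11.91 in daf-16 adults at 25 °C, against 11.67 to 11.80 at 15 °C, and 11.60 to 11.83 in wild-type adults at 25 °C, against 11.48 to 11.70 at 15 °C. The summed level thus overlapped between temperatures. In daf-16 adults it did so only narrowly, with a lowest value of 11.790 at 25 °C and a highest of 11.797 at 15 °C. At least 10 of the 12 markers had a mean above that of their arrays' median gene in every group.

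Of 10 neuronal markers, 7 rose in daf-16 adults and 8 in wild-type adults, and 0 fell (70% and 80% higher, beside 13.4% and 15.1% of all genes). Their log2 summed level was 12.11 to 12.27 in daf-16 adults at 25 °C, against 11.72 to 11.82 at 15 °C, and 12.14 to 12.21 in wild-type adults at 25 °C, against 11.60 to 11.66 at 15 °C. Of 9 body wall muscle markers, 3 rose and 1 fell in daf-16 adults and 7 rose and 0 fell in wild-type adults. The log2 summed level of the 9 was 12.54 to 12.72 in daf-16 adults at 25 °C, against 12.34 to 12.71 at 15 °C. In wild-type adults it was 12.72 to 12.89 at 25 °C, against 12.20 to 12.25 at 15 °C. Of 10 early embryo markers, 4 rose and 1 fell in daf-16 adults and 5 rose and 0 fell in wild-type adults, with a log2 summed level of 11.08 to 11.11 in daf-16 adults at 25 °C, against 10.85 to 10.93 at 15 °C, and 10.78 to 11.17 in wild-type adults at 25 °C, against 10.65 to 10.86 at 15 °C. Of 8 intestinal markers 3 rose (37.5%) and 0 fell in daf-16 adults and 1 rose and 1 fell (12.5% each) in wild-type adults, the latter near the shares of all genes. The log2 summed level of the 8 was 11.78 to 11.84 in daf-16 adults at 25 °C, against 11.43 to 11.52 at 15 °C. In wild-type adults it was 11.63 to 11.88 at 25 °C, against 11.42 to 11.60 at 15 °C. Of 9 germ-line markers 0 rose and 1 fell in each genotype, a share of 11.1%. Among all genes 11.2% fell in daf-16 and 15% in wild-type adults. Of 9 sperm markers 0 rose and 1 fell in daf-16 adults, also 11.1%, and 0 were called in wild-type adults. In the latter limma gave 2 of the 9 an unadjusted p under 0.05, beside 39.9% of all genes. The germ-line and sperm falls were thus near or under the share of all genes. The markers that fell were col-19, tnt-2, end-1 and spe-41 in daf-16 adults, asp-1 in wild-type adults and glh-1 in both, by -0.46 to -1.01 in daf-16 and -0.49 to -0.68 in wild-type adults. The log2 summed level of the germ-line markers was 14.10 to 14.21 in daf-16 adults at 25 °C, against 14.19 to 14.28 at 15 °C. In wild-type adults it was 14.17 to 14.25 at 25 °C, against 14.33 to 14.41 at 15 °C. For the sperm markers it was 6.52 to 6.74 at 25 °C, against 6.885 to 7.19 at 15 °C, in daf-16 adults. In wild-type adults the sperm level was 6.475 to 7.62 at 25 °C, against 6.92 to 7.15 at 15 °C. The part of these shifts in the rises of the peptide genes was not tested.

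By correlation over the 24 arrays, with the mean of each stage taken off, the genes outside the set most like nlp-29 were idpc-6 (Pearson r = 0.76), gtnt-7 (0.68), him-3 (0.68), srw-85 (0.67) and pyt-1 (0.67), out of 10817 genes compared. Among the other 9 genes of the set the highest was nlp-31, at 0.48. For cnc-2 the most like were gtnt-57 (0.74), twk-40 (0.73), srv-10 (0.73), fbxa-106 (0.72) and srbc-32 (0.70), and the highest of the set was nlp-29, at 0.08. These values describe arrays that share groups and normalization and carry no test.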

How the data were processed

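RNA was extracted with TRI reagent and hybridized to Affymetrix C. elegans Gene 1.1 ST arrays, per the labels' protocols. The deposited values are log2 levels made by the authors with RMA (background correction, quantile normalization and probe-set summary), per the submitters' processing notes. No version of RMA and no genome build is given in the sources used here. With 3 arrays a group, their number limits the precision.

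Of 29317 probe sets, 25484 had exactly 1 gene symbol in the platform table, 700 had several and 3133 had none. For 41 genes with several probe sets the brightest was kept, and 3 probe sets blank in adults were left out, which gave 25434 genes with no filter on low values. The RefSeq table held the gene of 25433 probe sets with 1 symbol, under the same symbol in each case.

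R 4.3.3 and limma 3.58.1 fitted the 8 group means over 24 arrays (16 residual degrees of freedom). Of 12 contrasts, 4 were of temperature, 4 of genotype and 4 were differences of differences. Tests were two-sided, adjusted by Benjamini-Hochberg over all genes, with calls at an adjusted p under 0.05. The script was tested on simulated data. The alternatives were a replicate block, stage-wise fits, median centring, array weights, leaving out genes with a mean below the median, a variance trend and leaving out each array.

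Same-numbered preparations deviated together (all 3 correlations over 0.1) in the temperature comparison of wild-type adults, at 0.26 to 0.34, and in the genotype comparison of 25 °C larvae, at 0.15 to 0.45. Elsewhere they did not.

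The genes described and the 4 pathway and 7 cell-type lists were chosen with earlier results of these data known. Named were all 10 genes, daf-16, up to 4 called genes per list by size, and the 5 genes most correlated with nlp-29 and with cnc-2. nsy-1, dpy-10 and opt-2 had no probe set carrying that symbol alone. The nlp and cnc sequences are not used here.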

Additional observations from a re-analysis of the deposited data

Results flagged for a closer look

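For several genes the temperature difference was not the same in adults and in larvae, which also differed in their time at the temperature. The test was limma's of the adult minus the larval log2 difference (25 °C minus 15 °C). In daf-16 worms this was 3.37 for cnc-6, 3.23 for nlp-34, 1.56 for cnc-4, 1.53 for nlp-29 (adjusted p = 0.036), 0.91 for nlp-31 (adjusted p = 0.018) and 0.86 for nlp-30 (adjusted p = 0.027). In wild-type worms it was 2.65 for cnc-6, 2.21 for nlp-34, 1.49 for cnc-4, 1.01 for nlp-30 (adjusted p = 0.0077) and 0.98 for nlp-33 (adjusted p = 0.029).

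For nlp-29 in daf-16 worms the larval level was lower at 25 °C and the adult difference of 0.36 passed no test. The gap missed the threshold in 7 of the runs that left out 1 array, with a log2 value of 1.17 and an adjusted p of 0.12 without daf-16 larval preparation 1 at 15 °C. The nlp-30 value in daf-16 worms was lost in 6 such runs (adjusted p up to 0.094, without daf-16 adult preparation 2 at 25 °C), the nlp-31 value in 3 (up to 0.063, without daf-16 larval preparation 1 at 15 °C) and the nlp-33 value in wild-type worms in 8 (up to 0.095, without wild-type adult preparation 1 at 15 °C). The values of cnc-6 and cnc-4 kept their calls in every run and setting tried in which they were tested. The larval levels of cnc-6 lay near the bottom of the arrays, where small changes are reported poorly.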

How the results depend on the processing

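Over 10 genes and 12 comparisons, 27 results were called. In all alternatives where they were tested 20 kept the call and 7 lost it at least once, 5 of the 93 others gained one, and 0 called differences reversed. For genotype in adults at 15 °C the count of genes called was 1 in place of 0 with array weights, a variance trend or a replicate block, each through nlp-33. The replicate block, for paired preparation numbers, gave an adjusted p of 0.024 there and changed no other call of the 10 genes. Numbers paired the arrays by the check in 2 comparisons, and not in this one. For temperature in larvae, the fit with larval arrays alone gave 0 in place of 1 in daf-16 worms and 1 in place of 0 in wild-type worms. Leaving out the dimmer genes removed nlp-27, nlp-29, nlp-31 and cnc-6 from testing, which left a count of 1 in place of 3 for genotype in adults at 25 °C and 0 in place of 1 for temperature in daf-16 larvae.

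Leaving out 1 array at a time, the count ran from 6 to 7 for temperature in daf-16 adults, 5 to 6 in wild-type adults and 0 to 1 in daf-16 larvae, from 0 to 1 for genotype in adults at 15 °C, and from 3 to 7 in daf-16 and 3 to 6 in wild-type worms for temperature by stage. The count of 3 came without daf-16 larval preparation 2 at 25 °C and without wild-type adult preparation 3 at 15 °C. It stayed at 3 for genotype in adults at 25 °C and at 0 in the other 5 comparisons. Over all genes, array weights gave 2059 calls in place of 762 for genotype in adults at 25 °C, 797 in place of 374 at 15 °C, 28 in place of 18 in larvae at 15 °C, 175 in place of 68 for temperature by genotype in adults and 3878 in place of 2552 for temperature by stage in daf-16 worms. Fits of 1 stage gave 586 in place of 1170 for temperature in daf-16 larvae, 606 in place of 1088 in wild-type larvae, 232 in place of 374 for genotype in adults at 15 °C and 25 in place of 68 for temperature by genotype in adults. For genotype in larvae at 15 °C the variance trend gave 29 and the replicate block 39 in place of 18, and the block gave 1 in place of 0 for temperature by genotype in larvae. The median SE of a difference between 2 groups was 0.16 over all genes. Some genes had a larger SE, such as 0.43 for nlp-34, whose difference of 1.06 in wild-type larvae was not called.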
